A study of Mus musculus with 4 samples.

Results

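Phase II conjugating enzymes attach a polar group to drugs, steroids and reactive lipid products. The set described here comprised every probe set annotated to 1 gene whose symbol begins with Gsta, Gstk, Gstm, Gsto, Gstp, Gstt or Gstz and a digit, with Ugt1 to Ugt3, or with Sult and a digit, plus Ephx1. These were 35 of the 12488 probe sets on the array and 27 of the 8251 genes with such a probe set. They fell into 15 glutathione transferase genes, 2 glucuronosyltransferase genes, 9 sulfotransferase genes and Ephx1. A further probe set annotated to several glucuronosyltransferase genes did not meet the rule and was not used here. Liver RNA of female mice, killed in the fed state at 8 months of age, was hybridised to 4 Affymetrix MG_U74Av2 arrays, 1 for each group. The groups were HSL-null mice on a high-fat diet (FD, 58% of energy from fat), HSL-null mice on a normal diet (ND, 11% of energy from fat), wild-type mice on FD and wild-type mice on ND, each kept on its diet for 6 months. HSL-null mice carry a general knockout of the hormone-sensitive lipase gene, and the study asked how it affects liver metabolism. Each array read 1 pool, of 4 livers for HSL-null FD and of 6 livers for each of the other groups. No group had a second array, so nothing was tested, no p-value is given, and "higher" and "lower" describe these 4 pools.

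Glutathione transferases join glutathione to electrophiles, among them products of lipid peroxidation. Glucuronosyltransferases transfer glucuronic acid from UDP-glucuronate to bilirubin, steroids and drugs, and sulfotransferases transfer sulfate from its activated donor PAPS to steroids, bile acids, phenols and amines. Ephx1 encodes microsomal epoxide hydrolase, which opens epoxides left by cytochrome P450 enzymes and is often induced with conjugating enzymes. In rodent liver the transcription factors NRF2, CAR and PXR are known to induce many of these genes, and several sulfotransferases differ between the sexes.

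Values are MAS5 signals on a linear scale, which the authors had scaled to a common trimmed mean. A probe set's brightness depends on its probes, so signals are compared between arrays and not between genes. For ratios, signals under a floor of 6.1 were raised to it. Of the 27 genes, 23 had a probe set with a mean signal of at least 26.9 and were kept, each represented by its brightest probe set, beside 4829 kept genes in all. The log2 ratio of 1 gene had an SD of 0.298 from disagreement between its probe sets, estimated over 687 genes, and 0.426 for the difference between 2 ratios. This SD leaves out error shared on an array and variation between animals, neither of which was measured. The run settings gave 1 solution lot for both HSL-null arrays and another for both wild-type arrays, and the effects of lot and of genotype cannot be told apart. The signals of 18S control probe sets averaged 99.1 in HSL-null FD, 307.1 in HSL-null ND, 84.2 in wild type FD and 192.2 in wild type ND, and were lower on both FD arrays. The ratio of 3′ to 5′ signal of Gapdh lay between 0.838 and 0.867 on the 4 arrays. Lipe, the targeted gene, had signals of 15.9 in HSL-null FD and 11.9 in HSL-null ND, against 34.0 in wild type FD and 28.0 in wild type ND. It was lower in HSL-null liver on both diets, but its mean signal was under the filter, and whether its probes lie in the deleted part is not known here.

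The tissue label was checked against hepatocyte markers, of which 10 of 10 on the array were kept, among them Alb and Apoa1. Their summed signal was 22631 in HSL-null FD, 25127 in HSL-null ND, 21877 in wild type FD and 28968 in wild type ND. None of 6 markers of bile duct cells on the array was kept, with summed signals from 38.4 to 55.4. Krt7 was at or near the floor on every array, while Cftr had between 13.5 and 16.3. Of 7 kept markers of exocrine pancreas 6 were highest in the wild-type ND pool and Cela1 in HSL-null FD, with a summed signal of 383.8 in HSL-null FD, 330.5 in HSL-null ND, 341.0 in wild type FD and 967.8 in wild type ND. Kupffer cell and macrophage markers summed to 2675 in HSL-null FD, 2811 in HSL-null ND, 2057 in wild type FD and 3013 in wild type ND. The 9 lymphocyte markers on the array summed to 1070 in HSL-null FD, 1160 in HSL-null ND, 1030 in wild type FD and 1269 in wild type ND. The 5 kept lymphocyte markers had a median log2 ratio of -0.82 for FD against ND in wild type and 0.58 in HSL-null liver. In HSL-null liver the sum was thus lower on FD, opposite in direction to that median. Stellate cell and matrix markers summed to 1580 in wild type FD and to between 1967 and 2030 in the other 3 pools, and red blood cell markers ranged from 2466 to 3102. The part of these shifts in the ratios below was not tested, and in such bulk samples fewer cells of a type and less RNA per cell cannot be told apart.

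On the high-fat diet several conjugating enzymes had higher signals in the wild-type pool. In wild type, Sult3a1, Gsta4, Ephx1 and Gsta2 were 2.14-fold to 4.95-fold higher on FD than on ND, where 0.787% of all kept genes were 2-fold or more higher. In HSL-null liver no member reached 2-fold in either direction at its brightest probe set, though a dim probe set of Gstm5 did. Of all kept genes, 0.828% were 2-fold or more higher there and 0.621% lower. HSL-null liver on FD had lower signals than wild-type liver on FD for 13 of the 14 kept glutathione transferase genes, beside 41.5% of all kept genes. Gsta4 and Gstm6 were more than 2-fold lower, beside 0.953% of all kept genes, though the second probe set of Gstm6 gave 1.86-fold. On ND the sole member 2-fold apart between the genotypes was Sult3a1, which was higher in HSL-null liver, beside 0.497% of all kept genes. The 2 kept glucuronosyltransferase genes differed by at most 1.17-fold between any 2 of the 4 pools. The wild-type FD array enters both the diet ratio in wild type and the genotype ratio on FD, so these are not separate observations. Likewise the wild-type ND array enters both the diet ratio in wild type and the genotype ratio on ND, those of Sult3a1 included. That array was lowest for 11 of the 23 kept members, beside 24.4% of all kept genes.

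**Figure D1:**
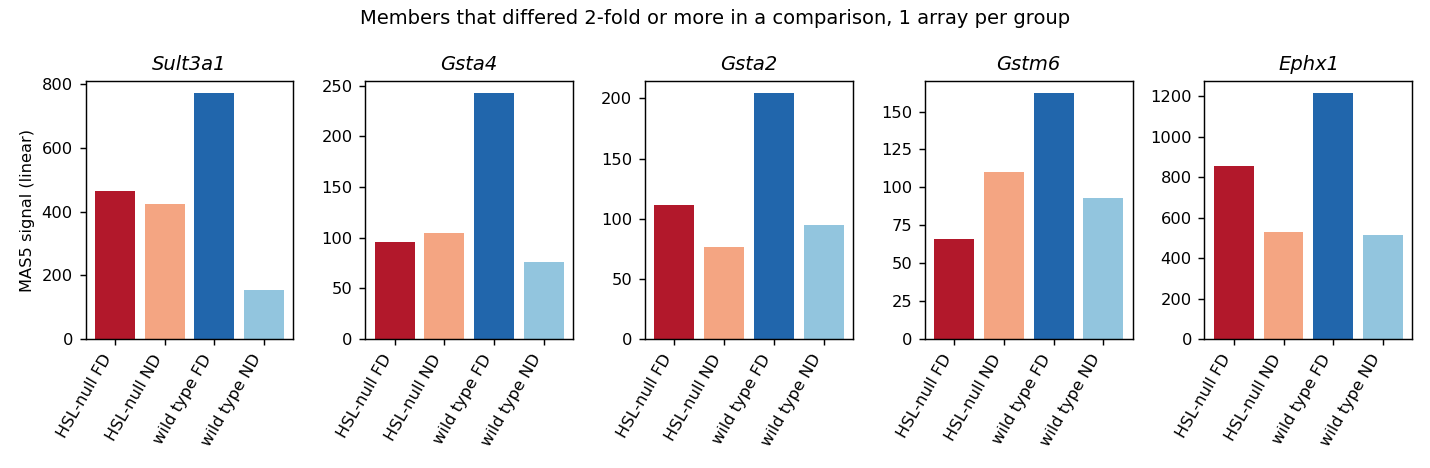
MAS5 signal (linear, bars from 0) of the 5 members that differed 2-fold or more in a comparison at their brightest probe set, with 1 bar per array and group. Wild type FD is the highest bar of each gene, at 771.5 for Sult3a1, 242.5 for Gsta4, 204.2 for Gsta2, 162.0 for Gstm6 and 1213.9 for Ephx1.

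Gsta4 encodes an alpha-class glutathione transferase known for conjugating 4-hydroxynonenal, a product of lipid peroxidation. Its signals were 96.3 in HSL-null FD, 104.9 in HSL-null ND, 242.5 in wild type FD and 75.9 in wild type ND. The wild-type FD pool stood apart, and the other 3 pools lay within 1.38-fold of each other. Its log2 ratio of FD to ND was -0.12 in HSL-null liver and 1.68 in wild type, where 4 of the 4829 kept genes had a higher one. HSL-null against wild type gave -1.33 on FD and 0.47 on ND. The difference between these genotype ratios, FD minus ND, was -1.80, and 14 kept genes had a lower one.

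Gsta2, another alpha-class gene whose product also reduces lipid hydroperoxides, had signals of 111.4 in HSL-null FD, 76.8 in HSL-null ND, 204.2 in wild type FD and 95.2 in wild type ND. It was higher on FD than on ND in both genotypes, by 1.45-fold in HSL-null liver and 2.14-fold in wild type. HSL-null liver was below wild type on both diets, with log2 ratios of -0.87 on FD and -0.31 on ND, the second of which is about the size of the SD between probe sets. Gsta3, an alpha-class gene whose product protects mice from aflatoxin, stayed within 1.23-fold over the 4 pools, with 1016.1 in HSL-null FD, 1092.5 in HSL-null ND, 1168.7 in wild type FD and 948.6 in wild type ND. Gsta1, which neighbours Gsta4 in the genome, had 1.9 or less on every array and was not kept.

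The mu-class genes Gstm5, Gstm6, Gstm3, Gstm2 and Gstm1 lie in 1 cluster with at most 1 other gene between neighbours. At the brightest probe set of each gene, Gstm6 was the one of them past 2-fold in a comparison. Its brightest probe set gave 66.0 in HSL-null FD, 110.0 in HSL-null ND, 162.0 in wild type FD and 92.8 in wild type ND. Its second probe set gave 69.7 in HSL-null FD, 101.2 in HSL-null ND, 129.4 in wild type FD and 116.0 in wild type ND. Both probe sets were lowest in HSL-null FD and highest in wild type FD. HSL-null against wild type on FD had log2 ratios of -1.30 and -0.89 at the 2 probe sets, and FD against ND in HSL-null liver had -0.74 and -0.54. For FD against ND in wild type the probe sets gave 0.80 and 0.16, so the size of that ratio depends on the probe set.

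Among the other mu-class genes, Gstm1 had 3362.8 in HSL-null FD, 3583.1 in HSL-null ND, 3927.2 in wild type FD and 4056.2 in wild type ND, a spread of 1.21-fold. Its second kept probe set gave 55.0 in HSL-null FD, 44.8 in HSL-null ND, 62.8 in wild type FD and 47.7 in wild type ND. Gstm3 had a spread of 1.23-fold at its brightest probe set, where HSL-null against wild type on FD was -0.30, and -0.72 at another. Gstm2 was lower in HSL-null liver on both diets at its brightest probe set, with log2 ratios of -0.39 on FD and -0.36 on ND, but its second probe set gave 0.20 on FD and -0.35 on ND. The probe sets that represent Gstm1, Gstm3 and Gstm5 carry a suffix for probes shared within a gene family, so near-identical transcripts cannot be separated there. Gstm5 had 0.013 on FD and 0.19 on ND at its brightest probe set for HSL-null against wild type. The Gstm5 probe set without a suffix, with a mean signal of 76.7, gave -0.11 on FD and 0.20 on ND. A suffix probe set with a mean signal of 28.8 gave -0.52 on FD and -1.84 on ND for Gstm5, and an FD to ND ratio of 2.15 in HSL-null liver and 0.83 in wild type. Its signals were 33.2 in HSL-null FD, 7.5 in HSL-null ND, 47.6 in wild type FD and 26.8 in wild type ND, so the HSL-null ND value lay close to the floor.

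The remaining 6 kept glutathione transferase genes all had a log2 ratio of FD to ND of 0 or more in wild type. Gstk1, the kappa-class enzyme of mitochondria and peroxisomes, had 838.5 in HSL-null FD, 674.5 in HSL-null ND, 980.9 in wild type FD and 503.6 in wild type ND. Its FD to ND ratio was 1.24-fold in HSL-null liver and 1.95-fold in wild type, just under the threshold. Gstt2, a theta-class gene, had 342.3 in HSL-null FD, 384.7 in HSL-null ND, 589.5 in wild type FD and 467.2 in wild type ND, and was 1.72-fold lower in HSL-null than in wild-type liver on FD. Gstt1, its neighbour in the genome but for 1 gene, was 1.37-fold lower there. Gstz1, whose product isomerises maleylacetoacetate in tyrosine breakdown, had 2234.6 in HSL-null FD, 2500.2 in HSL-null ND, 2564.7 in wild type FD and 1999.8 in wild type ND. It spread over 1.28-fold, with a log2 ratio of FD to ND of -0.16 in HSL-null liver and 0.36 in wild type. Gsto1, an omega-class gene, had a log2 ratio of FD to ND of 0.014 in HSL-null liver and 0.48 in wild type. Gstp1, the pi-class gene, was the steadiest of the family, with 1713.0 in HSL-null FD, 1630.5 in HSL-null ND, 1788.9 in wild type FD and 1788.5 in wild type ND.

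As a family, the glutathione transferases were highest in the wild-type FD pool. Of the 14 kept genes, 11 had their highest signal there, against 1 in HSL-null FD, 0 in HSL-null ND and 2 in wild type ND. Over all kept genes, 25.4% had their highest signal and 36.1% their lowest in wild type FD. The family's median log2 ratio of FD to ND was -0.088 in HSL-null liver and 0.35 in wild type, where the medians of all kept genes were 0.041 and -0.047. HSL-null against wild type had a family median of -0.29 on FD and 0.14 on ND, and all kept genes had 0.067 and -0.018. The difference between the genotype ratios, FD minus ND, had a median of -0.49 in the family, from -1.80 for Gsta4 to 0.071 for Gstp1, and of 0.092 over all kept genes. These family medians kept their sign under quantile normalization and under median scaling of the arrays, but some changed in size. Under median scaling the median difference was -0.78 and the median for genotype on ND 0.27, which was 0.032 with probe sets averaged per gene. For diet in HSL-null liver the median was -0.017 under quantile normalization and -0.24 under median scaling.

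Sult3a1 encodes a sulfotransferase that acts on amines and is known as a female-predominant liver gene in mice. Its signals were 464.8 in HSL-null FD, 424.1 in HSL-null ND, 771.5 in wild type FD and 155.8 in wild type ND. The 2 wild-type pools were the extremes, and both HSL-null pools lay between them. FD was 1.10-fold above ND in HSL-null liver and 4.95-fold above ND in wild type, where none of the 4829 kept genes had a higher ratio. HSL-null against wild type had opposite signs on the 2 diets, with log2 ratios of -0.73 on FD and 1.44 on ND, the second exceeded by 6 kept genes. The difference, FD minus ND, was -2.18. Sult3a1 had 1 probe set, so no second reading of these values exists on the array.

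The other 5 kept sulfotransferase genes stayed under 2-fold in every comparison. Sult2a2, which sulfates hydroxysteroids and bile acids and has close paralogs, had 2510.8 in HSL-null FD, 2797.4 in HSL-null ND, 2352.4 in wild type FD and 2428.5 in wild type ND, a spread of 1.19-fold. Sult1a1, the phenol sulfotransferase, had 346.1 in HSL-null FD, 403.6 in HSL-null ND, 392.7 in wild type FD and 303.7 in wild type ND. Its second probe set had 2.8 or less on every array. Its log2 ratio of FD to ND was -0.22 in HSL-null liver and 0.37 in wild type, both near the SD between probe sets. Sult1d1, which sulfates catecholamines, was the one member at least 1.5-fold lower on FD than on ND in wild type, with 214.8 in HSL-null FD, 272.1 in HSL-null ND, 158.0 in wild type FD and 238.0 in wild type ND. Its neighbour Sult1b1, which sulfates thyroid hormones, was higher on FD in wild type, with log2 ratios of FD to ND of 0.23 in HSL-null liver and 0.40 in wild type. Sult5a1 had signals between 31.4 and 38.3 on the 4 arrays.

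The sulfotransferase medians rest on 6 genes with ratios of both signs. FD against ND had a median of -0.012 in HSL-null liver and 0.26 in wild type. HSL-null against wild type had 0.075 on FD and 0.22 on ND. The sign of the median on FD between genotypes turned to -0.031 under quantile normalization and to -0.092 under median scaling, and that for diet in HSL-null liver turned to 0.056 under quantile normalization and to 0.13 without the filter on signal. Sult4a1, Sult2b1 and Sult1c1 were not kept. Sult4a1, known mainly from brain, had 23.5 in HSL-null FD, 15.2 in HSL-null ND, 6.4 in wild type FD and 28.0 in wild type ND, close to the floor in 1 pool. Sult2b1, a cholesterol sulfotransferase, had between 2.5 and 11.2, and Sult1c1 had 5.9 or less.

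Glucuronosyltransferases were represented by Ugt2b5 and Ugt2b34, enzymes of the 2b subfamily that lie in 1 gene cluster. Ugt2b5 had 2411.4 in HSL-null FD, 2553.3 in HSL-null ND, 2454.1 in wild type FD and 2473.8 in wild type ND. Ugt2b34 had 834.6 in HSL-null FD, 804.9 in HSL-null ND, 759.2 in wild type FD and 711.2 in wild type ND. Every log2 ratio of both genes lay between -0.082 and 0.18, inside the SD between probe sets. The probe set of Ugt2b5 carries a suffix for probes shared within the family, so close paralogs may contribute to it.

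Ephx1 was higher on FD than on ND in both genotypes. Its signals were 853.8 in HSL-null FD, 530.5 in HSL-null ND, 1213.9 in wild type FD and 515.0 in wild type ND. The 2 ND pools differed by 1.03-fold and the 2 FD pools by 1.42-fold, with HSL-null below wild type. The FD to ND ratio was 1.61-fold in HSL-null liver and 2.36-fold in wild type, where 18 kept genes had a higher one. The difference between the genotype ratios, FD minus ND, was -0.55 on the log2 scale, beside the SD of 0.426 for such a difference.

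**Figure D2:**
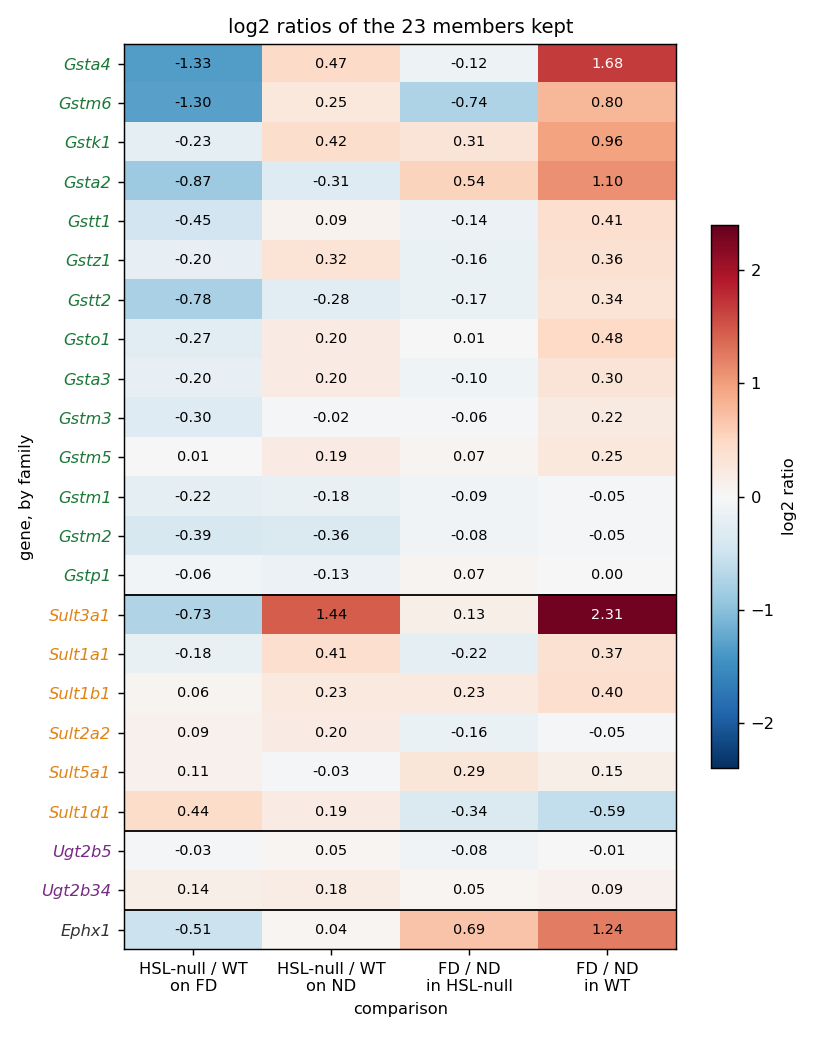
Heat map of log2 ratios (colour and printed value) of the 23 kept members, in rows by family and in columns by comparison, with WT for wild type. The column for FD over ND in wild type holds the highest values, up to 2.31 for Sult3a1, and the column for HSL-null over wild type on FD the lowest, down to -1.33 for Gsta4.

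Promoter windows are shown for Sult3a1, Gsta2 and Ephx1, which were at least 2-fold higher on FD in wild type, and for Gsta3, an alpha-class gene that stayed under 1.5-fold. Each is the 250 bases before the RefSeq gene start on GRCm38.p6, printed 5′ to 3′ along the gene, with matches to any of 4 motifs in capitals. RefSeq windows were found for 23 of the 27 member genes, and Gsta4 is named only.
Sult3a1, chr10:33857472-33857721, plus strand: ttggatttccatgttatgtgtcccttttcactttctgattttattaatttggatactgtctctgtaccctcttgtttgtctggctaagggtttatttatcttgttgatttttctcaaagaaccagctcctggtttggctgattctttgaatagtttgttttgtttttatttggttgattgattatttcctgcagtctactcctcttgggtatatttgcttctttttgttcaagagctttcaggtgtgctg
Gsta2, chr9:78347146-78347395, minus strand: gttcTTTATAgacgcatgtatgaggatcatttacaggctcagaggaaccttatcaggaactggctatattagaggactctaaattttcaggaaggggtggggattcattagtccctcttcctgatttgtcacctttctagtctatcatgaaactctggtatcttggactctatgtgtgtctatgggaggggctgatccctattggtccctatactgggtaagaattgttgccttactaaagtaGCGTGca
Ephx1, chr1:181017570-181017819, minus strand: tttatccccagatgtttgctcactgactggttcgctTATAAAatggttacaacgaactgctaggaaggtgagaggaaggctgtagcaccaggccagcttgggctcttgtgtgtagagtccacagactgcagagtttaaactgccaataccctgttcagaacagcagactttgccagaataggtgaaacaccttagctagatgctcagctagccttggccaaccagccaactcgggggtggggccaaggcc
Gsta3, chr1:21240335-21240584, plus strand: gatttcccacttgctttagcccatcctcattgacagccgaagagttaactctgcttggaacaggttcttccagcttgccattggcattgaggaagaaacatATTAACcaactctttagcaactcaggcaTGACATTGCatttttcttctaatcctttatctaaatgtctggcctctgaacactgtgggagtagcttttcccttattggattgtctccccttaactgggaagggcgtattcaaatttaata

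The motifs were searched on both strands as TGACNNNGC for the antioxidant response element bound by NRF2, GCGTG for the core bound by the AHR, GTTAAT for an HNF1 half-site and TATAAA for the TATA box. The letters of the first can overlap with those of the core for the AHR. Among the 29 windows of member genes, 2 held TGACNNNGC (6.90%), those of Gsta3 and Gstm5, against 10.2% of all 32851 windows of the same length. GCGTG was in 8 of the 29 windows (27.6%) and in 28.2% of all windows. GTTAAT was in 3 windows (10.3%, against 6.43%) and TATAAA in 4 (13.8%, against 12.4%). The Sult3a1 window held none of the 4, Gsta2 held GCGTG and TATAAA, Ephx1 held TATAAA, and Gsta3 held TGACNNNGC and GTTAAT. These letters describe the windows only, and sites farther from the start were not searched.

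Counted over all 23 kept members, 4 were 2-fold or more higher on FD than on ND in wild type and 0 lower, where 0.787% of all kept genes were higher and 2.36% lower. In HSL-null liver 0 members were higher and 0 lower, where 0.828% and 0.621% of all kept genes were. HSL-null against wild type on FD had 0 members higher and 2 lower (Gsta4 and Gstm6), against 1.86% and 0.953% of all kept genes. On ND it had 1 member higher (Sult3a1) and 0 lower, against 0.497% and 1.08%. The difference between the genotype ratios, FD minus ND, was 2-fold or more lower for 3 members (Gsta4, Gstm6 and Sult3a1) and higher for 0, against 1.39% and 4.93% of all kept genes. Gstm6 passed at its brightest probe set only, and its second probe set gave a log2 difference of -0.70. The 23 members are few, and a single gene moves each count.

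Counts by sign take in all 23 kept members, those past 2-fold included. The log2 ratio of FD to ND was above 0 for 10 of 23 members in HSL-null liver and for 18 of 23 in wild type, where 56.9% and 44.0% of all kept genes were above 0 and 42.8% and 55.7% below. For diet in HSL-null liver the majority sign depended on the processing, with 13 above 0 and 10 below under quantile normalization, 12 and 11 with probe sets averaged per gene, and 5 and 18 under median scaling. The genotype ratio was above 0 for 6 members on FD and for 16 on ND, where 58.3% and 47.3% of all kept genes were above 0 and 41.5% and 52.6% below. On FD 13 of 14 glutathione transferases were below 0. Above 0 were 4 of 6 sulfotransferases and 1 of 2 glucuronosyltransferases, counts near the 58.3% of all kept genes. The medians of these 2 families on FD turned to -0.092 for sulfotransferases and -0.11 for glucuronosyltransferases under median scaling. The difference between the genotype ratios was below 0 for 20 of 23 members and for 41.7% of all kept genes. Median scaling moved the median of all genes by 0.14 for diet in wild type and by -0.17 for genotype on FD. There, 22 of 23 members were above 0 for diet in wild type beside 60.1% of all genes, and 1 of 23 for genotype on FD beside 38.9%. Under quantile normalization these were 21 of 23 beside 50.9% and 5 of 23 beside 50.9%. With 1.5-fold as the threshold, Gstk1 and Gstm6 joined the 4 members higher on FD in wild type, beside 4.56% of all kept genes, and Sult1d1 was lower, beside 9.48%. At this threshold Gsta2, Gstt2 and Sult3a1 joined the 2 members lower in HSL-null than in wild-type liver on FD, beside 3.77%, and 0 were higher, beside 9.17%. On ND still 1 member was higher, beside 2.36%, and 0 lower, beside 4.37%. In HSL-null liver Ephx1 was 1.5-fold higher on FD, beside 4.14%, and Gstm6 lower, beside 2.30%. Gstk1 and Sult1a1 joined the 3 members with a lower difference between the genotype ratios, beside 6.52%, and 0 had a higher one, beside 16.1%.

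**Figure D3:**
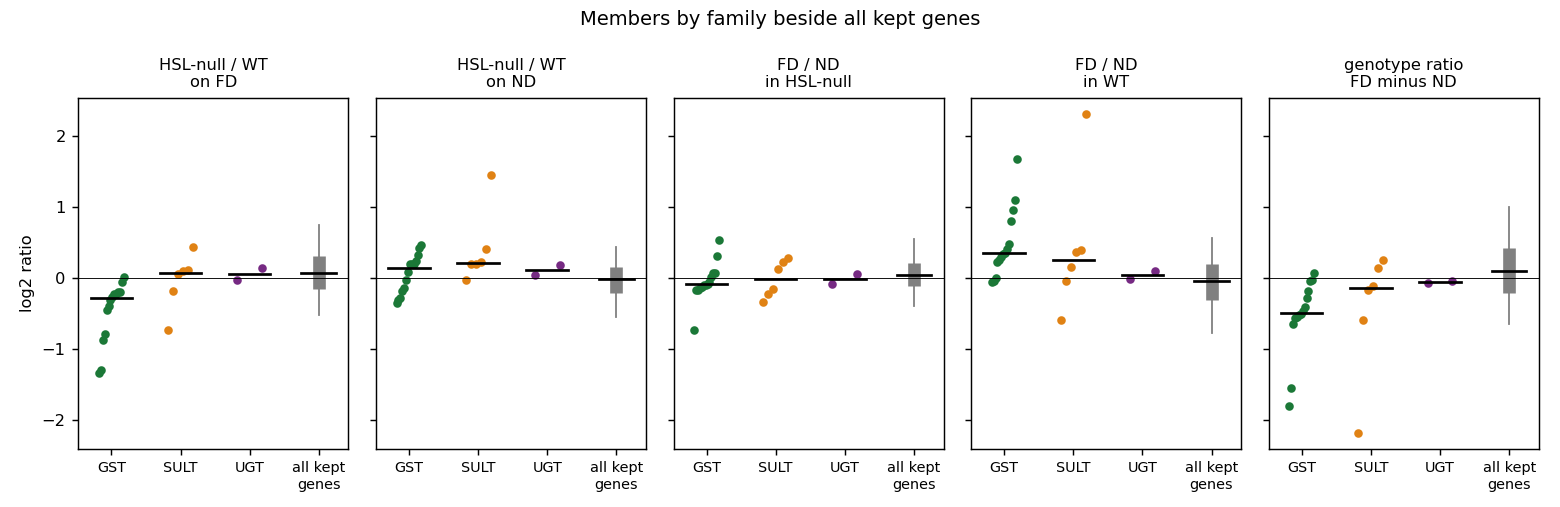
log2 ratios of the kept members by family (points, with the median as a line) beside all 4829 kept genes (thick bar for the middle 50%, thin line from the 5th to the 95th percentile, black line for the median), for the 4 ratios and the difference between the genotype ratios. GST, SULT and UGT stand for glutathione transferases, sulfotransferases and glucuronosyltransferases, and the glutathione transferases have medians of -0.29 for HSL-null over wild type on FD and 0.35 for FD over ND in wild type.

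The diet ratio of most members was smaller in HSL-null than in wild-type liver. These 2 ratios share no array. Their difference, HSL-null minus wild type, is the same number as the difference between the genotype ratios, so it adds no separate observation. Gstm6 and Gsta4 lay farthest from equal ratios among the glutathione transferases, with -0.74 and -0.12 in HSL-null liver and 0.80 and 1.68 in wild type. Ephx1, Gsta2 and Gstk1 were above 0 in both genotypes, and lower in HSL-null liver. Sult1b1 had 0.23 in HSL-null liver and 0.40 in wild type, while Sult5a1, with 0.29 in HSL-null liver and 0.15 in wild type, was 1 of 3 members with the larger ratio in HSL-null liver, the others being Gstp1 and Sult1d1.

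**Figure D4:**
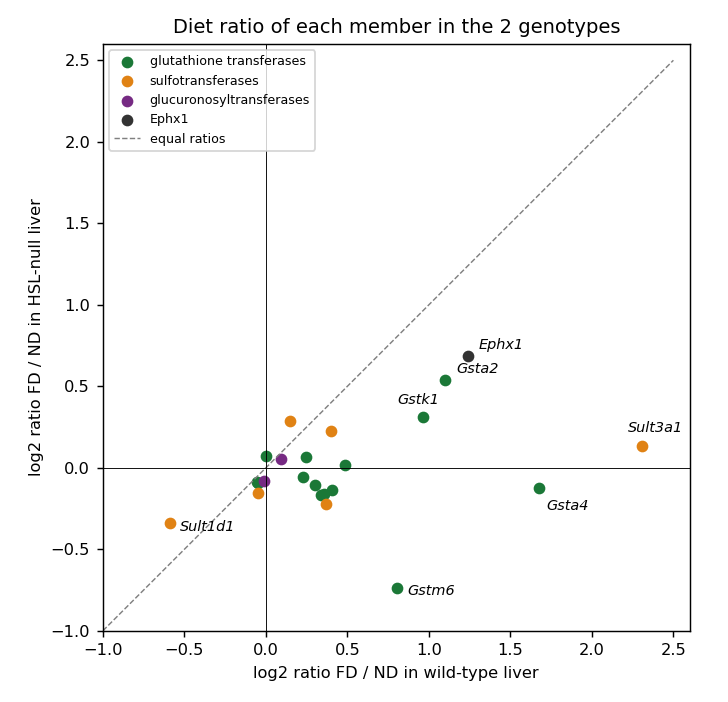
log2 ratio of FD to ND of each of the 23 kept members in HSL-null liver (vertical axis) and in wild-type liver (horizontal axis), coloured by family, with a dashed line for equal ratios. In all, 20 of the 23 points lie below that line, with Sult3a1 farthest at 0.13 in HSL-null and 2.31 in wild type. Of all kept genes, 41.7% had a smaller ratio in HSL-null than in wild-type liver.

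Genes that supply the conjugation reactions were read from lists chosen with earlier results of these data known. Of 10 kept genes of glutathione synthesis and recycling, 0 were 2-fold apart in any of the 4 ratios, and the list's median log2 ratio of FD to ND was 0.13 in HSL-null liver and 0.15 in wild type. Mgst3, a microsomal glutathione transferase outside the symbol rule, had 320.1 in HSL-null FD, 349.0 in HSL-null ND, 613.7 in wild type FD and 326.3 in wild type ND. Like Gsta4 it was highest in wild type FD, and its difference between the genotype ratios was -1.04. Gpx4, a peroxidase of lipid hydroperoxides, had a difference of -0.93. Gclc, the catalytic subunit of the first step of glutathione synthesis, was highest in HSL-null FD instead, with 678.9 in HSL-null FD, 495.3 in HSL-null ND, 403.0 in wild type FD and 441.4 in wild type ND.

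For glucuronidation, Ugdh, which makes UDP-glucuronate, had a log2 ratio of FD to ND of 0.30 in HSL-null liver and 0.42 in wild type, and 0 of 4 kept genes of its list were 2-fold apart. For sulfation, Papss2, which makes the sulfate donor, had -0.21 in HSL-null liver and 0.13 in wild type, and Tst, a sulfurtransferase, had -0.20 in HSL-null liver and 0.26 in wild type, with 0 of 4 kept genes 2-fold apart. The 11 kept genes of other conjugation reactions also held 0 past 2-fold. There, Ephx2, the soluble epoxide hydrolase, had 0.34 in HSL-null liver and 0.63 in wild type, and Nnmt, a nicotinamide methyltransferase, had -0.59 in HSL-null liver and -0.43 in wild type. Of 4 kept exporters of conjugates, 1 was 2-fold higher on FD in wild type: Abcg2, an efflux pump, with 147.0 in HSL-null FD, 85.9 in HSL-null ND, 132.3 in wild type FD and 61.2 in wild type ND. Abcg2 was higher on FD in both genotypes, with log2 ratios of 0.78 in HSL-null liver and 1.11 in wild type.

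Known NRF2 targets outside the set were read in the same way. Over 12 kept genes the median log2 ratio of FD to ND was 0.08 in HSL-null liver and 0.20 in wild type, with 0 of 12 at 2-fold or more higher in either and 1 lower, Me1 in HSL-null liver. Srxn1, which encodes sulfiredoxin, was higher on FD in both genotypes, with 117.3 in HSL-null FD, 77.3 in HSL-null ND, 74.0 in wild type FD and 50.1 in wild type ND. In wild type, Gclm, Gsr, Pgd, Taldo1, Tkt and Ces1g also had a log2 ratio of FD to ND above 0. Below 0 there were Hmox1 (-0.63), Txnrd1 (-0.21), Gclc (-0.13), Me1 (-0.08) and Fth1 (-0.06). Me1 and Pgd, which make NADPH, each had a 2-fold lower difference between the genotype ratios, of -1.22 for Me1 and -1.05 for Pgd. Me1 had 236.4 in HSL-null FD, 580.0 in HSL-null ND, 430.9 in wild type FD and 454.1 in wild type ND, so its low value was in HSL-null FD. Pgd had 116.0 in HSL-null FD, 139.7 in HSL-null ND, 139.1 in wild type FD and 80.8 in wild type ND, with its low value in wild type ND.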

How the data were processed

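The authors deposited 1 table of MAS5 intensities, 1 linear signal per probe set and array, and run settings (other values, with no expression). MAS5 is named per the submitters' processing notes, which give no version here. Trimmed means ran from 100.085 to 100.094. Detection calls were not used here.

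From these signals, with Python 3.11.15, numpy 2.4.6 and pandas 2.3.3, 66 control probe sets were left out. Of 12422 others, 10833 had 1 gene in the platform annotation, 396 several and 1193 none. All 27 member symbols matched a RefSeq gene table of GRCm38.p6. The floor of 6.1 is the 25th percentile of all signals, and the filter of 26.9 the median of the probe set means, which left 5615 probe sets. A log2 ratio of 1 or more in size, 2-fold, counted as different. Error was estimated from the 2 brightest probe sets of a gene, as the SD of the difference of their ratios divided by the square root of 2. Precision is limited by the number of arrays.

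The members and lists were chosen with earlier results of these data known. Genes were named where they passed 2-fold or were among the 3 brightest of a family. Other members, and those past 1.5-fold, were named to account for all. Of each list, kept genes past 2-fold and otherwise up to 2 with the largest ratios were named. Gpx4, Gclc, Srxn1, Nqo1, Nfe2l2, Nr1i3, Nr1i2, Cela1, Alb, Apoa1, Krt7 and Cftr fall outside this rule and were picked with their values known. The other kept NRF2 targets were named to give both signs in wild type. Alternatives tried were quantile normalization, median scaling, another floor, a pseudocount of 16, no filter or a stricter one, averaging a gene's probe sets, no suffix probe sets and a 1.5-fold threshold. The steps were tested on simulated data.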

Additional observations from a re-analysis of the deposited data

Results flagged for a closer look

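The same contrast had opposite signs in 2 groups for 3 genes and 1 family, each 2-fold or more apart for a gene. With 1 array per group these differences were not tested. Gsta4 had a log2 ratio of FD to ND of -0.12 in HSL-null liver and 1.68 in wild type, a difference of -1.80. Gstm6 had -0.74 in HSL-null liver and 0.80 in wild type, a difference of -1.54. Its second probe set had -0.54 and 0.16, a difference of -0.70, which is under 2-fold. That 0.16 lies inside the SD of 0.317 between probe sets for diet in wild type, so a reversal for Gstm6 rests on 1 probe set. Sult3a1 had a genotype ratio of -0.73 on FD and 1.44 on ND, a difference of -2.18. The glutathione transferase family had a median of -0.088 for diet in HSL-null liver and 0.35 in wild type, and its median difference was -0.487. The HSL-null values of Gsta4 and of the family lie inside the SD of 0.257 between probe sets for that ratio. For these no reversal is shown, and the family median in HSL-null liver was -0.017 under quantile normalization.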

How the results depend on the processing

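No paired analysis was possible because each group had 1 array and no result came from a test, and no replicate could be left out. Of 90 counts of members under the alternatives, 82 stayed within 1.5 times the reported count. Without a filter, Sult4a1 entered and gave 1 member higher in HSL-null liver on FD, 1 lower on FD in wild type and 1 higher in the difference between genotype ratios, where 0 were reported. At 1.5-fold, 5 members were lower in HSL-null than in wild type on FD, 1 was lower on FD in wild type, 1 was higher and 1 lower on FD in HSL-null liver, and 5 were lower in the difference. All 160 medians of the members and families moved by less than the SD between probe sets. That SD is for the ratio of 1 gene, so it is a loose limit for a median over several genes. The median difference between the genotype ratios over all members was -0.41, and -0.70 under median scaling, and some other medians turned sign. Of 470 ratios of named genes, 3 crossed 2-fold or, if under it, moved by more than the SD of their comparison: Gsta2 had -1.04 for genotype on FD under median scaling and 0.99 for diet in wild type with a pseudocount, and Gstm6 had 0.48 for diet in wild type as the mean of its probe sets. Another 19 of the 470 turned sign, all from a log2 ratio of 0.14 or less in size, with the largest shift for Gstm1, from -0.047 to 0.27 for diet in wild type under quantile normalization. Over all kept genes, the share 2-fold higher and lower was 0.995% and 1.74% under quantile normalization and 1.26% and 1.53% under median scaling for diet in wild type, and 1.31% and 1.22% and 1.06% and 1.49% for genotype on FD. Low signals limit Sult5a1 and the 4 genes not kept.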

Other observations

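Genes marking the position of hepatocytes in the lobule, from lists chosen with earlier results known, were also read. Over 9 kept pericentral genes the median log2 ratio of FD to ND was 0.10 in HSL-null liver and -0.23 in wild type, and over 10 kept periportal genes it was -0.04 in HSL-null liver and -0.35 in wild type. The part of lobular position in the members' ratios was not tested. Cyp7a1, the rate-limiting enzyme of bile acid synthesis, was the one gene of either list past 2-fold in a ratio, with 213.6 in HSL-null FD, 92.6 in HSL-null ND, 175.1 in wild type FD and 111.1 in wild type ND.

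Regulators of drug metabolism were read as RNA. Over 15 kept genes the median log2 ratio of FD to ND was 0.11 in HSL-null liver and -0.27 in wild type, and 0 of them were 2-fold apart in any ratio. The lowest ratios in wild type were -0.88 for Mafk and -0.77 for Onecut1. Nfe2l2, which encodes NRF2, had 0.35 in HSL-null liver and 0.01 in wild type. Nr1i3, which encodes CAR, had 0.44 in HSL-null liver and 0.24 in wild type, and Nr1i2, which encodes PXR, had -0.01 in HSL-null liver and -0.32 in wild type. The activity of these factors was not measured.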
